A study of Mus musculus with 10 samples.

Results

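YAP/TEAD factors and a set of their target and feedback genes were followed in cultured mouse molars with and without insulin-like growth factor 1 (IGF1). The 9 genes, chosen by name, were Yap1, Wwtr1, Tead1, Ctgf, Cyr61, Ankrd1, Amotl2, Lats2 and Ajuba, out of 18381 genes in the count table. Current annotation names Ctgf as Ccn2 and Cyr61 as Ccn1. Of the 9 genes, 8 were in the table and all 8 passed the filter on low counts, and the expression of Ankrd1 was not analysed here. The samples were first lower molars of wild type C57BL/6JOlaHsd embryos at embryonic day 14, cultured for 6 h as hanging drops. From every one of 5 embryos, labelled 1, 2, 3, 4 and 6, the molar of one side was kept in medium with mouse recombinant IGF1 at 750 ng per ml and the molar of the other side with the vehicle alone, PBS with BSA, so that there were 5 IGF1 and 5 control samples. Teeth of the right and left side were described as balanced between the groups, but 5 pairs cannot be split evenly. The labels give no side for a tooth, and side was not in the fit. Each sample was a whole tooth with epithelium, mesenchyme and other cells mixed.

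The Hippo pathway is a kinase cascade that restrains growth. The kinases MST1 and MST2 (genes Stk4 and Stk3) activate LATS1 and LATS2, which phosphorylate the co-activators YAP (Yap1) and TAZ (Wwtr1) and keep them out of the nucleus. Unphosphorylated YAP and TAZ enter the nucleus, bind TEAD factors on DNA and switch on genes such as Ctgf and Cyr61, and YAP is known to act in the epithelium of the tooth. Because the pathway acts mainly through phosphorylation and location of proteins, transcript levels describe its genes and not the activity of the kinases.

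TEAD factors bind the core GGAATG, which reads CATTCC on the opposite strand. RefSeq promoter windows of GRCm38.p6, from 250 bases before to 50 after the annotated start, were available for 7 of the 9 genes; Ctgf and Tead1 were not searched. All 7 held at least 1 TEAD core on either strand, compared with 14.7% of all 32851 windows and with 16.6% of 27025 genes. In 6 of the 7 the core lay in the 250 bases before the start, and in Lats2 it began at base 5 after the start of the first of its windows. The 250 bases before the start are shown for Cyr61 and Ajuba, which fell with IGF1, and for Amotl2 and Yap1, which did not pass the test. They are written 5′ to 3′ along each gene's strand in lower case, and the capitals mark the TEAD core on either strand.
Cyr61: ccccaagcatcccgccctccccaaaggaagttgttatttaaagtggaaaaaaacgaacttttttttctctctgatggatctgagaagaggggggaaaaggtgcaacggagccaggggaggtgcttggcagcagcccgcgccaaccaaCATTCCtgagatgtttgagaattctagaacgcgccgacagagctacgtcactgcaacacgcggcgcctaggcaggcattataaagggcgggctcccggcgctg
Ajuba: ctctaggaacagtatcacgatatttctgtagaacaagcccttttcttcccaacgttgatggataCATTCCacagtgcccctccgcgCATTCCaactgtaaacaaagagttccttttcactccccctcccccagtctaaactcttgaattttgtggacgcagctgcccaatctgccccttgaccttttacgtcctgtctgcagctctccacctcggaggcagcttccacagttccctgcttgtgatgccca
Amotl2: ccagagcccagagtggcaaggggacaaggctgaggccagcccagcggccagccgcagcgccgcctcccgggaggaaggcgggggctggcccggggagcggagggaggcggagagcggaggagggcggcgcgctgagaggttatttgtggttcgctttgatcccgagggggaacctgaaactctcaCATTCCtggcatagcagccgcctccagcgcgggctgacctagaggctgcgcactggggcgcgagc
Yap1: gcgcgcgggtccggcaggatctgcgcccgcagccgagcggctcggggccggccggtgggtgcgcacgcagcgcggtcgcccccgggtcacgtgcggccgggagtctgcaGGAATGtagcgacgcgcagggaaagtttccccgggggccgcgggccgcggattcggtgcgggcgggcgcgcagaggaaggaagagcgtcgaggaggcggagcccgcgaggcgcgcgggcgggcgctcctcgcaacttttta
The sequence of Cyr61 was read from chr3:145649986-145650235 on the minus strand, that of Ajuba from chr14:54577662-54577911 on the minus strand, that of Amotl2 from chr9:102717554-102717803 on the plus strand and that of Yap1 from chr9:8004597-8004846 on the minus strand. Ajuba held 2 cores in these bases, both read as CATTCC, while Yap1 held the core as GGAATG. None of the 7 genes held a CArG box, the motif of serum response factor (SRF), which stood in 1.63% of all windows. At so low a share, finding none in 7 genes was likely for any genes and says nothing about SRF here. A match of letters does not show that a factor was bound. Among related lists, the TEAD core was found in 4 of 16 Hippo kinase and scaffold genes with a window, in 3 of 5 other TEAD and Vgll genes, in 3 of 11 other YAP target genes and in 4 of 12 SRF target genes.

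**Figure D1:**
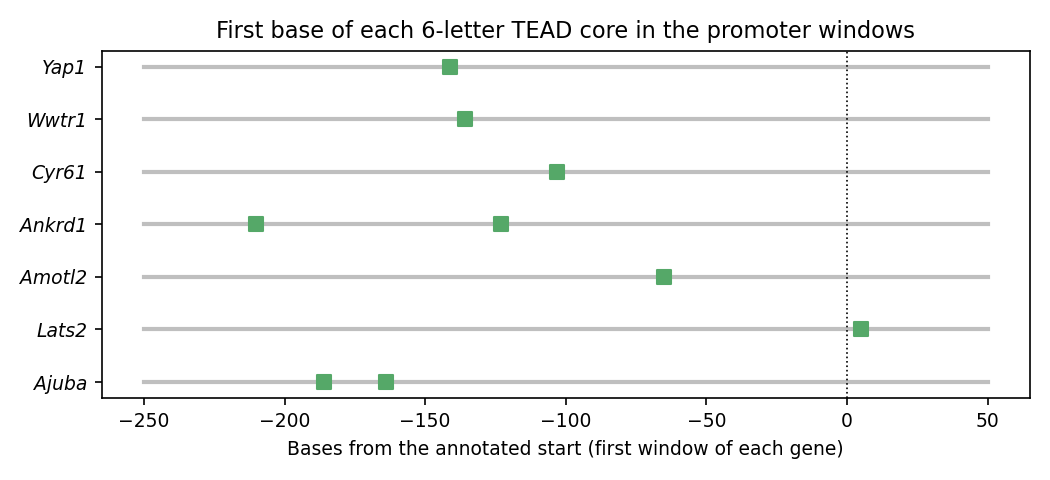
Position of the first base of each TEAD core in the RefSeq promoter windows of 7 YAP/TEAD genes (horizontal axis, bases from the annotated start; 1 line per gene, first window of each gene). Each line holds at least 1 core, and Ankrd1 and Ajuba hold 2.

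The levels of the genes were compared per length, as CPM (counts scaled to the library total after TMM normalization) per kb of merged exons. Yap1 was the highest in control teeth at 38.7 ± 1.54 (SD, n = 5), followed by Tead1 at 28.9 ± 1.95 and Wwtr1 at 22.1 ± 1.90. The secreted matrix proteins of the CCN family came next, with Ctgf at 19.1 ± 3.54 and Cyr61 at 16.0 ± 2.37, and Ajuba stood between them at 16.7 ± 2.94. The feedback genes were the lowest, with Lats2 at 6.11 ± 1.09 and Amotl2 at 4.73 ± 0.945. The control samples of Yap1 (37.2 to 41.0), Tead1 (26.9 to 31.8) and Wwtr1 (19.8 to 24.3) did not overlap. Wwtr1 overlapped with Ctgf (14.0 to 23.4), the ranges of Ctgf, Ajuba (13.6 to 21.6) and Cyr61 (13.1 to 18.7) overlapped, and so did those of Lats2 (4.44 to 7.15) and Amotl2 (3.85 to 6.29). The order of the means was identical in IGF1 teeth, and the control order kept 8 of 8 ranks when the longest transcript replaced the merged exons.

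Per length, the Yap1 level was 1.76 ± 0.202 times that of Wwtr1 in control teeth and 1.57 ± 0.301 times in IGF1 teeth (n = 5 each). This ratio depended on the length used, and with the longest transcript it was 3.04 in control teeth. Among the 4 TEAD genes, Tead2 had the highest control level at 35.1 ± 3.25, above Tead1, and Tead3 was at 8.78 ± 1.11 and Tead4 at 1.01 ± 0.283. Tead1 made up 39.3% ± 1.55 of the 4 in control teeth and 35.1% ± 5.54 in IGF1 teeth. Close relatives were often the more abundant forms. Lats1 stood at 24.0 ± 2.48 beside 6.11 for Lats2, and Amotl1 at 69.6 ± 5.21 and Amot at 18.5 ± 2.51 beside 4.73 for Amotl2. Of the LIM proteins related to Ajuba, Limd1 stood at 14.7 ± 0.384 and Wtip at 8.79 ± 1.94.

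**Figure D2:**
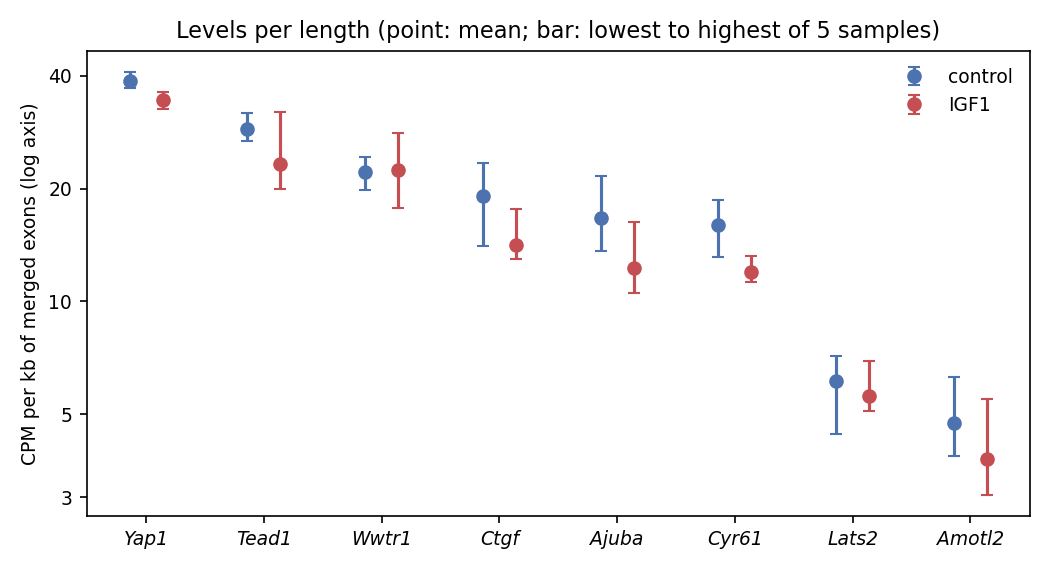
Level of each YAP/TEAD gene (vertical axis, CPM per kb of merged exons, log axis) in control and IGF1 teeth, where points are means and bars run from the lowest to the highest of 5 samples. Yap1 is the highest and Amotl2 the lowest gene in both groups.

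With IGF1, 3 of the 8 genes fell and none rose. These were Ctgf and Cyr61, which encode the CCN proteins most used as a readout of YAP, and Ajuba, a LIM scaffold protein that binds LATS kinases and holds back their action on YAP. Cyr61 fell by 25.5%, Ajuba by 25.7% and Ctgf by 26.2%. The threshold was 0.05 on the p-value of edgeR's quasi-likelihood test with embryo as a block, adjusted over all 14504 genes tested. Over all genes this test called 11.5% in either direction and 4.76% lower, against 3 of 8 lower here. Without the embryo block 1 gene was called (Cyr61), and without embryo 4 none was. The median log2 fold change of the 8 genes was -0.33, beside -0.00 for all genes tested, and 7 of the 8 were below 0. The genes were chosen with earlier results of these data known, and these counts are given as a description. In whole teeth, fewer cells of a type and less RNA per cell cannot be told apart.

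Ctgf (ENSMUSG00000019997, chr10:24595442-24598683, GRCm38) encodes connective tissue growth factor, a secreted protein of the extracellular matrix. Its control values were 40.2, 49.8, 57.3, 66.9 and 59.2 CPM in embryos 1, 2, 3, 4 and 6, and its IGF1 values were 38.3, 37.9, 50.4, 38.7 and 37.1 CPM. It was lower with IGF1 in all 5 embryos, by little in embryo 1 and by most in embryos 4 and 6, and the groups overlapped. The mean fell from 54.7 ± 10.1 to 40.5 ± 5.57 CPM (SD, n = 5), a log2 fold change of -0.44 (SE 0.11, 95% confidence interval -0.68 to -0.20, adjusted p = 0.0264, edgeR). The call was lost without the embryo block (adjusted p = 0.0713) and without embryo 2 (0.0528), 4 (0.112) or 6 (0.106).

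Cyr61 (ENSMUSG00000028195, chr3:145646976-145649981) encodes the closest relative of Ctgf used as a YAP readout, a secreted ligand of integrins. Control values were 26.5, 29.1, 32.0, 37.7 and 36.5 CPM and IGF1 values 24.5, 23.2, 23.9, 22.7 and 26.7 CPM in the same order of embryos. All 5 embryos were lower with IGF1, and the groups overlapped only through the control tooth of embryo 1 and the IGF1 tooth of embryo 6. The mean fell from 32.4 ± 4.79 to 24.2 ± 1.55 CPM, a log2 fold change of -0.42 (SE 0.10, interval -0.65 to -0.20, edgeR adjusted p = 0.0237). Cyr61 kept its call without the embryo block (adjusted p = 0.0417). It lost it in DESeq2's Wald test (0.0513) and without embryo 4 (0.101) or 6 (0.0741). Among control teeth both Ctgf and Cyr61 were lowest in embryo 1 and highest in embryos 4 and 6, and embryos 4 and 6 also showed the largest decreases of both. A decrease is measured from the control tooth, so in any gene a high control value by itself makes it larger. The 2 orders are therefore not separate observations.

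Ajuba (ENSMUSG00000022178, chr14:54567472-54577558) had control values of 78.7, 49.7, 58.7, 58.6 and 58.2 CPM and IGF1 values of 45.2, 38.4, 39.7, 41.8 and 59.2 CPM. It was lower with IGF1 in 4 of 5 embryos, and in embryo 6 the teeth were nearly equal. The mean fell from 60.8 ± 10.7 to 44.9 ± 8.44 CPM, a log2 fold change of -0.43 (SE 0.11, interval -0.67 to -0.19, edgeR adjusted p = 0.0272). The order over embryos was unlike that of Ctgf and Cyr61, since the largest decrease of Ajuba was in embryo 1 (log2 ratio -0.79), where those of Ctgf (-0.07) and Cyr61 (-0.11) were the smallest. This difference between genes was not tested. The call was lost without the block (adjusted p = 0.0944) and without embryo 1 (0.0920), 2 (0.0546), 3 (0.0685) or 4 (0.0924).

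**Figure D3:**
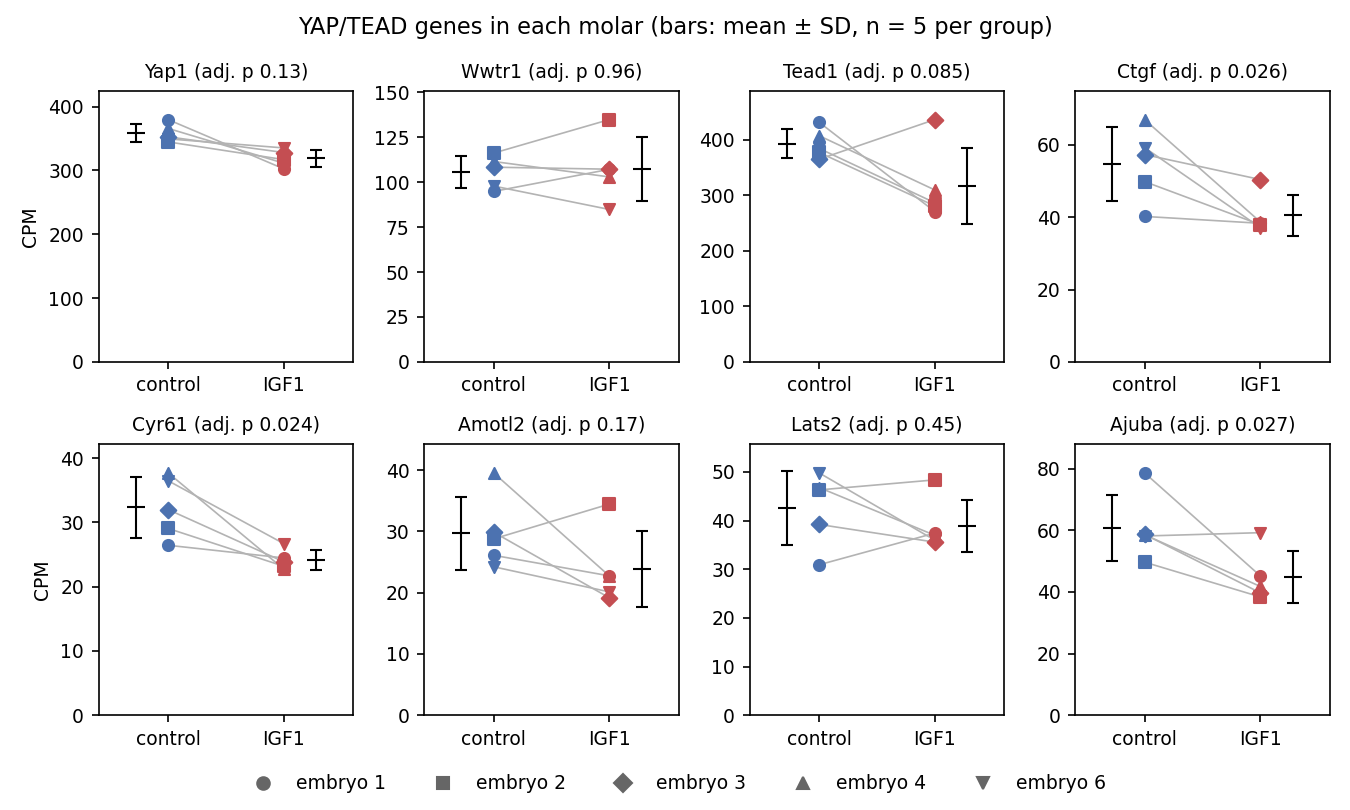
CPM of 8 YAP/TEAD genes in each molar (vertical axis from 0), with lines joining the teeth of an embryo and black bars for the mean ± SD (n = 5 per group). The IGF1 samples of Yap1 all lie below the control samples, and Ctgf and Cyr61 are lower with IGF1 in all 5 embryos.

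The co-activators and their DNA-binding partner did not pass the test. Yap1 (ENSMUSG00000053110, chr9:7931999-8004596) had control values of 380, 345, 353, 366 and 349 CPM and IGF1 values of 302, 317, 328, 311 and 335 CPM. Every IGF1 sample was below every control sample, which held for 1 of the 8 genes and for 3.03% of all genes tested. The difference was small, from 358 ± 14.2 to 319 ± 13.1 CPM, a log2 fold change of -0.17 (SE 0.065, interval -0.31 to -0.02, edgeR adjusted p = 0.127). Yap1, Ctgf and Cyr61 were the 3 genes lower in all 5 embryos, beside 11.2% of all genes tested. Wwtr1 (ENSMUSG00000027803, chr3:57455649-57575910), which encodes TAZ, was at 106 ± 9.08 CPM in control and 107 ± 17.9 CPM in IGF1 teeth. Its control values were 94.8, 116, 108, 111 and 97.8 CPM and its IGF1 values 107, 135, 107, 103 and 84.8 CPM. It was higher with IGF1 in embryos 1 and 2 and not in the others, and its log2 fold change was 0.01 (SE 0.080, interval -0.17 to 0.18, edgeR adjusted p = 0.964).

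Tead1 (ENSMUSG00000055320, chr7:112679318-112906807) encodes a TEAD factor that carries YAP and TAZ to DNA. Control values were 431, 377, 365, 407 and 384 CPM and IGF1 values 270, 281, 436, 309 and 286 CPM. In 4 embryos the IGF1 tooth was below all control teeth, while the IGF1 tooth of embryo 3 was the highest sample of all. The log2 fold change was -0.33 (SE 0.11, interval -0.57 to -0.08, edgeR adjusted p = 0.0845). Without embryo 3 it was -0.48 (adjusted p = 0.00262), and with the 5 embryos Tead1 passed in DESeq2's Wald test (adjusted p = 0.0292).

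The genes of negative feedback, which YAP and TEAD are known to switch on and whose products restrain YAP, were not called either. Amotl2 (ENSMUSG00000032531, chr9:102716672-102733418), an angiomotin that binds YAP at cell junctions, had control values of 26.1, 28.8, 29.9, 39.6 and 24.2 CPM and IGF1 values of 22.7, 34.5, 19.2, 22.7 and 20.1 CPM. It was lower in all embryos but embryo 2, with a log2 fold change of -0.33 (SE 0.15, interval -0.66 to -0.01, edgeR adjusted p = 0.173). Without embryo 2 the change was -0.50 (adjusted p = 0.0465), and without embryo 4 it was -0.21. Lats2 (ENSMUSG00000021959, chr14:57689662-57758388), a kinase that phosphorylates YAP and TAZ, had control values of 30.9, 46.3, 39.2, 46.8 and 49.8 CPM and IGF1 values of 37.4, 48.4, 35.6, 37.0 and 36.0 CPM. It was higher with IGF1 in embryos 1 and 2 and lower in embryos 3, 4 and 6, with a log2 fold change of -0.14 (SE 0.11, interval -0.38 to 0.10, edgeR adjusted p = 0.450). It ranged from -0.22 without embryo 1 to -0.09 without embryo 4 and -0.06 without embryo 6. These are the least counted of the 8 genes together with Cyr61, with counts of 76 to 290 per sample for Amotl2, 77 to 271 for Cyr61 and 90 to 407 for Lats2, against 1050 to 2985 for Yap1.

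The genes were not equally variable between embryos. The SD of the log2 ratio of a pair was 0.11 for Yap1, 0.18 for Wwtr1 and 0.22 for Cyr61, and it was 0.35 for Tead1 and 0.40 for Amotl2. Of the 8 genes, 6, 5, 7, 8 and 7 had a ratio below 0 in embryos 1, 2, 3, 4 and 6, so embryo 4 was the only pair in which all were lower. The median ratio of the 8 genes was -0.15, -0.22, -0.16, -0.44 and -0.34 in the same order. Without embryo 4, none of the 8 passed the threshold in edgeR's test. Without embryo 6 only Ajuba did (adjusted p = 0.0105).

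**Figure D4:**
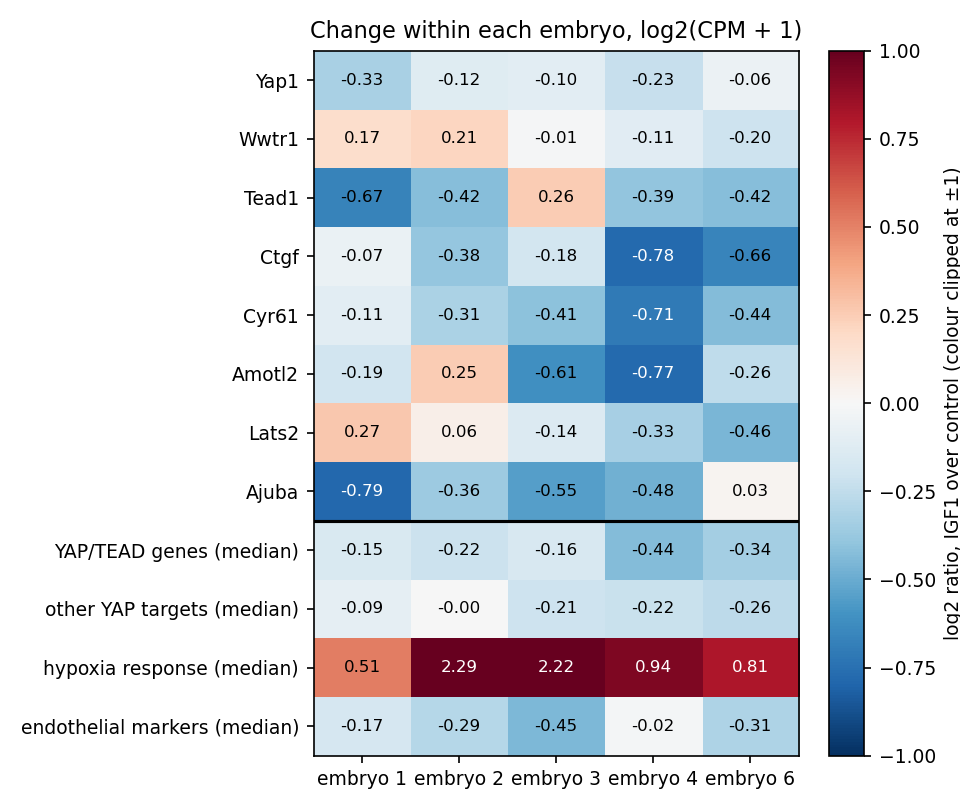
Log2 ratio of the IGF1 over the control tooth, log2(CPM + 1), within each embryo (columns) for 8 YAP/TEAD genes and for the medians of 4 gene lists (rows), with colour clipped at ±1. Embryo 4 is the only column in which all 8 genes are below 0, and the hypoxia median is above 0 in all 5 embryos.

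Other genes of the pathway were counted in 4 lists, of which 44 genes were tested, 4 fell and none rose. These 4 are 9.09% of the 44, beside 4.76% called lower and 11.5% called in either direction over all genes. The 4 were all in the list of other YAP target genes, where 4 of 17 fell, 13 did not pass and the median log2 fold change was -0.12. Of the 17, 12 were below 0, and 8 had an unadjusted p under 0.05 in edgeR's test. The share of all genes tested with such a p was not counted. Counts at an unadjusted p, here and below, therefore stand without a background share. Among those 8 was Igfbp3, which was higher with IGF1 in all 5 embryos, at 0.17 (edgeR adjusted p = 0.120). Crim1, a transmembrane protein that binds growth factors, fell from 87.3 ± 6.99 to 70.4 ± 5.26 CPM (log2 fold change -0.31, edgeR adjusted p = 0.0136), and its IGF1 samples were all below its control samples. Axl, a receptor tyrosine kinase, fell from 162 ± 11.9 to 134 ± 21.2 CPM (-0.29, adjusted p = 0.0264). Ccdc80, a matrix protein, fell from 87.7 ± 13.7 to 68.7 ± 4.30 CPM (-0.35, adjusted p = 0.0454), and Fjx1, a secreted relative of the four-jointed kinase, from 14.9 ± 1.54 to 10.6 ± 2.53 CPM (-0.51, adjusted p = 0.0497). Crim1, Axl and Fjx1 were lower in all 5 embryos and Ccdc80 in 4. F3, the coagulation receptor known as tissue factor, was at -0.34 (adjusted p = 0.289; -0.14 without embryo 4) and the forkhead factor Foxf2 at -0.26 (adjusted p = 0.157). None of the 17 was called without the embryo block or without embryo 4. The call of Fjx1 was also lost in DESeq2's Wald test (adjusted p = 0.125), in limma-voom (0.0513), without a filter on low counts (0.0545) and without any 1 of the 5 embryos (0.0584 to 0.153). Ccdc80 lost its call without a filter (0.0604) and without embryo 1, 3, 4 or 6 (0.0808 to 0.144), Axl without embryo 2, 3, 4 or 6 (0.0532 to 0.0730), and Crim1 only without the block (0.0513) and without embryo 4 (0.0508).

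None of 20 Hippo kinases and scaffolds passed the threshold in edgeR's test, DESeq2's Wald test or limma-voom, with a median log2 fold change of 0.03. At an unadjusted p under 0.05 in edgeR's test there were 3, Nf2 (log2 fold change 0.22, adjusted p = 0.0729), Frmd6 (-0.21, adjusted p = 0.0949) and Fat4 (-0.23, adjusted p = 0.178). They are named here after their values were seen. Without a share of all genes at that p, they are not read as changes. Nf2 encodes merlin, a junctional activator of the cascade, and was higher with IGF1 in all 5 embryos. Wwc1, the KIBRA scaffold, had the largest difference at 0.23 (adjusted p = 0.239), next to Fat4, an atypical cadherin. Frmd6 was called without embryo 3 (-0.28, adjusted p = 0.0273), where Fat4 was at -0.12 and Wwc1 at 0.15.

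Of the other TEAD factors and Vgll cofactors, 5 of 6 were tested and none passed in edgeR's test, DESeq2's Wald test or limma-voom. Tead2 was at a log2 fold change of -0.07 (SE 0.061, adjusted p = 0.489), Tead3 at 0.00 (SE 0.076, adjusted p = 0.978) and Tead4 at -0.30 (SE 0.29, adjusted p = 0.569). Tead3 turned to -0.04 without embryo 4 and to -0.02 without embryo 6, and Tead4 ranged from -0.50 without embryo 2 to -0.10 without embryo 6. Vgll3, a cofactor that competes with YAP for TEAD, was the only 1 of the 5 with an unadjusted p under 0.05, at 0.41 (adjusted p = 0.188), and it was at 0.15 (0.524) without embryo 3. Of the 4 other CCN family genes, 2 were tested and 0 passed by the same 3 tools, with 0 at an unadjusted p under 0.05. Nov was at 0.64 (SE 0.35, adjusted p = 0.285) and Wisp1 at 0.13 (SE 0.14, adjusted p = 0.592). Leaving out 1 embryo moved Nov to between 0.38 (without embryo 3) and 0.86, and Wisp1 to between 0.0079 (without embryo 2) and 0.31 (without embryo 3). Per length, Wisp1 stood at 9.35 ± 2.44 and Nov at 0.838 ± 0.276 in control teeth, both below Ctgf and Cyr61.

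**Figure D5:**
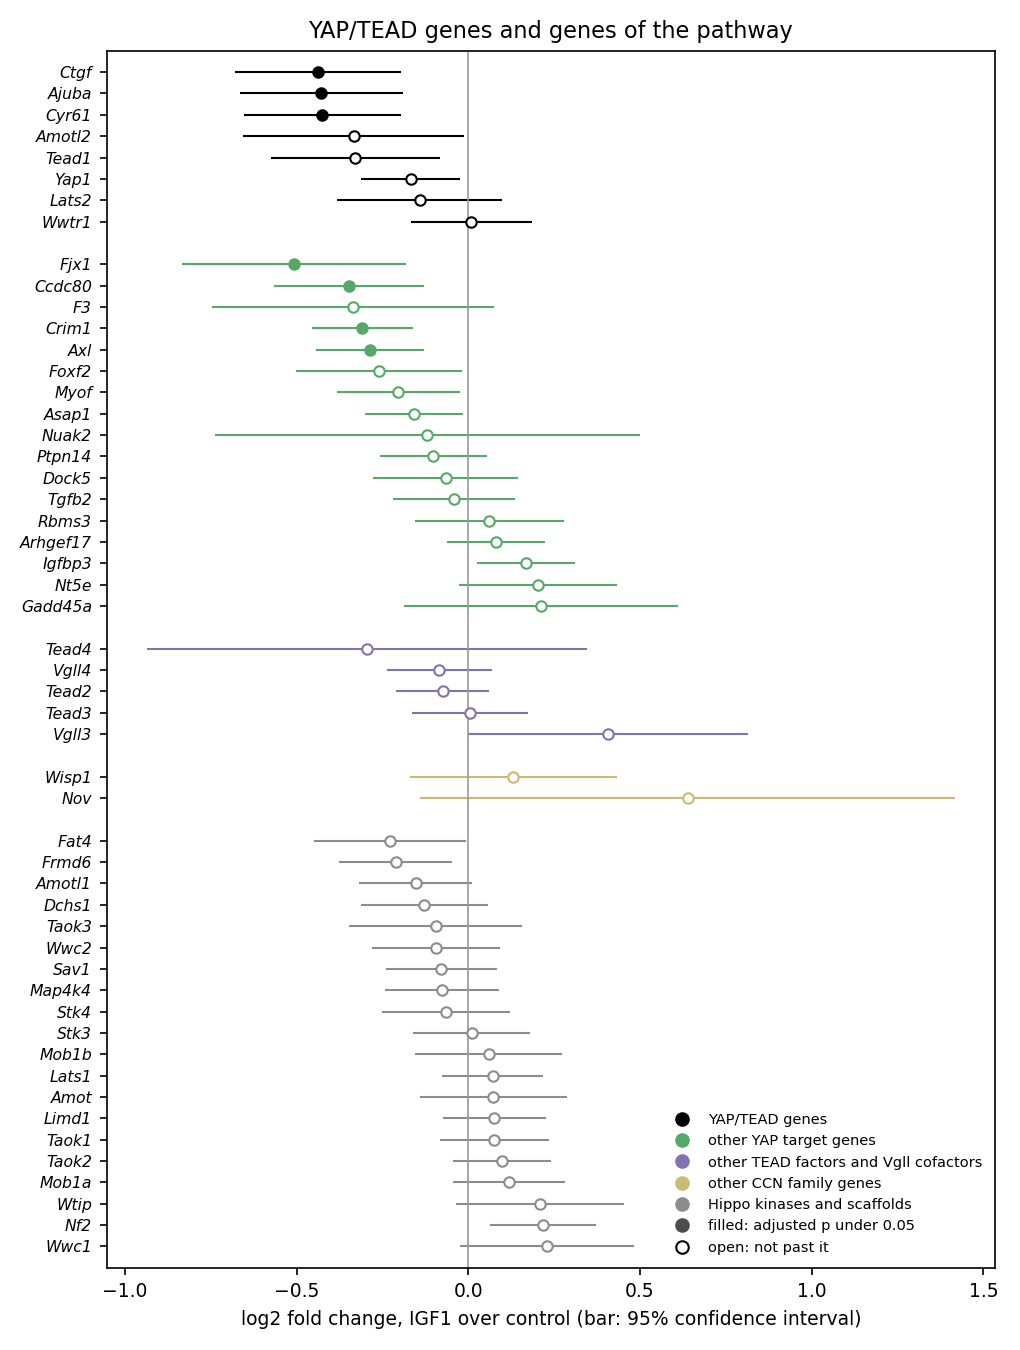
Log2 fold change with IGF1 (horizontal axis, bars are 95% confidence intervals) of 8 YAP/TEAD genes and of 44 other genes of the pathway, with filled points for an adjusted p under 0.05. The filled points are Ctgf, Ajuba and Cyr61 at -0.44 to -0.42 and the YAP targets Fjx1, Ccdc80, Crim1 and Axl at -0.51 to -0.29.

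Ctgf and Cyr61 also respond to SRF and to growth factor signals, so genes of those responses were counted beside them, against the 4.76% called lower and the 11.5% called in either direction over all genes. Of 14 SRF and MRTF target genes tested, 1 fell (7.14%) and none rose, with 10 below 0 and a median log2 fold change of -0.07. It was Thbs1, a matrix protein that is also a known YAP target, at -1.14 (from 192 ± 20.4 to 88.6 ± 20.2 CPM, edgeR adjusted p = 0.000153). Of 12 immediate early genes, 2 fell (16.7%) and none rose, with 11 below 0 and a median of -0.26. Egr1 was at -0.56 (adjusted p = 0.00116) and Egr3 at -1.17 (adjusted p = 0.00133), and Egr3 was not called without the embryo block (0.313). Of 13 hypoxia response genes, 11 rose (84.6%) and none fell, with a median of 1.68. Bnip3 was at 2.20 (adjusted p = 0.00193) and Ldha at 1.54 (adjusted p = 0.000775). The summed level of the hypoxia list was 805 to 1257 CPM in control and 1471 to 5097 CPM in IGF1 teeth. Its median log2 ratio was 0.51, 2.29, 2.22, 0.94 and 0.81 in embryos 1, 2, 3, 4 and 6. In the same order the immediate early median was -0.44, -0.07, -0.28, -0.54 and -0.22, and the SRF and MRTF median was -0.03, 0.05, -0.34, -0.02 and -0.02. The YAP/TEAD median was lowest in embryos 4 and 6, the hypoxia median was largest in embryos 2 and 3, the immediate early median was lowest in embryo 4 and the SRF median in embryo 3. The part of any of these responses in the levels of the YAP/TEAD genes was not tested.

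Markers of both tissues of a molar were present, as epithelial markers such as Krt5 (775 CPM in control) and mesenchymal markers such as Vim (1412 CPM) were all measured. Of the markers tested, 10% of the epithelial, 20% of the mesenchymal, endothelial and macrophage and 50% of the 2 neuron and glia markers were called. Over all genes 11.5% were called in either direction and 4.76% lower, and the differences from these shares were not tested. Of 10 epithelial markers, 1 rose, Krt5 at 0.43 (edgeR adjusted p = 0.0126), and the summed level was 1630 to 2384 CPM in control and 1943 to 2537 CPM in IGF1 teeth. Of 10 mesenchymal markers 2 fell, Pdgfra at -0.53 (adjusted p = 0.00183) and Vim at -0.42 (adjusted p = 0.00949), 7 of 10 were below 0 with a median of -0.11, Lum was at 0.22, Col1a1 at 0.14 and Col1a2 at 0.10 without passing the threshold, and the sums were 6980 to 9121 CPM and 6492 to 9070 CPM. Of 10 endothelial markers 2 fell, Cdh5 at -0.38 (edgeR adjusted p = 0.0188) and Esam at -0.42 (0.0406). In this list 9 of 10 were below 0 with a median log2 fold change of -0.26, and the sums were 418 to 477 CPM and 334 to 441 CPM. The median endothelial log2 ratio was -0.17, -0.29, -0.45, -0.02 and -0.31 in embryos 1, 2, 3, 4 and 6. In the same order the epithelial median was -0.02, 0.20, 0.32, -0.13 and 0.24, and the mesenchymal median was -0.00, -0.19, -0.21, -0.04 and -0.24. The endothelial median was nearest to 0 and the epithelial median lowest in embryo 4, and the mesenchymal median was lowest in embryo 6. Of 5 macrophage markers tested, 1 fell, Csf1r at -0.44 (edgeR adjusted p = 0.0234), and 3 were below 0 with a median of -0.35. Mrc1 was at -0.38 (edgeR adjusted p = 0.209) and lower in all 5 embryos, and Fcgr1 was at -0.35 (0.657). Cd68 was at 0.27 (edgeR adjusted p = 0.421) and Adgre1 at 0.03 (0.928). The macrophage sums were 50.1 to 72.9 CPM in control and 45.6 to 67.4 CPM in IGF1 teeth. Of 2 neuron and glia markers tested, Tubb3 rose (0.70, adjusted p = 0.0283), with sums of 18.7 to 26.8 CPM and 19.5 to 34.5 CPM. None of 4 skeletal muscle markers tested was called, 0 had an unadjusted p under 0.05, and Myog, Acta1 and Mylpf were at 0 in at least 1 control sample. The muscle sums were 19.1 to 33.8 CPM and 14.1 to 58.2 CPM. Several of these marker calls depended on the fit. Without the embryo block, Krt5, Vim, Cdh5, Esam, Csf1r and Tubb3 were not called (adjusted p = 0.0706 to 0.303), and Pdgfra was. DESeq2's Wald test did not call Esam (0.103) or Csf1r (0.0640). Esam was lost without any 1 embryo (0.0593 to 0.137), Csf1r without embryo 3, 4 or 6 (0.05002 to 0.102), Tubb3 without embryo 1, 2, 4 or 6 (0.0545 to 0.144), Cdh5 without embryo 2 or 4 (0.0537 and 0.0545) and Krt5 without embryo 6 (0.0646). The part of these cell types in the YAP/TEAD values was not tested.

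The chromosomal surroundings of the genes were also tabulated. Within 500 kb of the 9 genes, measured between the lower coordinates of the genes, lay 97 protein coding neighbours, of which 73 were tested, 5 fell and 1 rose. These 6 of 73 are a smaller share than the 11.5% called in either direction over all genes, while the 5 that fell are a larger share than the 4.76% called lower. Neither difference was tested, and the 6 neighbours are named as a description. Both neighbours that changed near Ctgf encode ectonucleotide pyrophosphatases. They were Enpp1 at a log2 fold change of -0.72 (edgeR adjusted p = 0.00506), 42.5 kb away, and Enpp3 at -0.88 (adjusted p = 0.0275), 177 kb away. Near Cyr61, Ddah1 rose by 0.61 (adjusted p = 0.00944) and Znhit6 was at -0.41 (adjusted p = 0.0479). Ajuba lies in the densest region, with 36 neighbours, 26 of them tested, of which Oxa1l alone was called, at -0.38 (adjusted p = 0.00695). Near Tead1, Mical2 was at -0.24 (adjusted p = 0.0365). No tested neighbour of Yap1, Wwtr1, Ankrd1, Amotl2 or Lats2 was called. Ajuba and Lats2 are both on chromosome 14, with lower coordinates 3122190 bases apart.

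For the 3 genes that fell, the genes with the most similar pattern were sought over the 10 samples, as Pearson's r of log2(CPM + 1). The 10 samples are 5 pairs of teeth and share embryo, treatment and depth, so the values are descriptions. Closest to Ctgf were Igsf10 (r = 0.95, Spearman's rho = 0.85), Ep300 (r = 0.93, rho = 0.83) and Cttnbp2 (r = 0.92, rho = 0.88). Closest to Cyr61 were Cnst (r = 0.96, rho = 0.96), Bod1l (r = 0.96, rho = 0.90) and Usp54 (r = 0.95, rho = 0.95). Closest to Ajuba were Casz1 (r = 0.95, rho = 0.88), Bcam (r = 0.95, rho = 0.79) and Pou3f3 (r = 0.95, rho = 0.98). Without the 2 samples farthest from the median of the gene, r was between 0.83 and 0.97 for all 9 genes. These 9 were picked as the highest of all genes tested, so a high r follows from the search. Dropping samples from the same set is no independent check. The 3 lists shared no gene and held none of the YAP/TEAD genes, but each held only 3 genes, so this does not show that the patterns differ.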

How the data were processed

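Total RNA of 10 individually handled molars was sequenced with the Ovation Mouse RNAseq System. The authors deposited estimated counts per gene, without normalization, for 18381 genes. The values were whole numbers with 0 exceptions, so rounding changed none, and each gene had at least 10 counts over all samples. The submitters' processing notes name FastQC 0.11.8, Trimmomatic 0.39, Salmon 0.99.0, DESeq2 and GRCm38 with no role. The transcript set, the strand setting and the filter are not given in the sources used here, so counts of paralogs and overlapping genes could be split. Gene names, coordinates and lengths came from GENCODE M21 (GRCm38), which held 18287 of the identifiers and not the other 94. Totals were 2845773 to 8403151 counts in control and 3456634 to 8763113 in IGF1 samples, lowest in embryo 1 in both. Counting error is therefore largest in that embryo.

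The test was edgeR 4.0.16 (TMM, filterByExpr, quasi-likelihood F test) in R 4.3.3, with embryo as a block and Benjamini-Hochberg adjustment over 14504 genes. The block was used because both teeth of a pair came from 1 embryo. After subtraction of its group's mean, a tooth correlated with the other tooth of its embryo at 0.36, 0.25, -0.03, 0.21 and 0.35 (embryos 1, 2, 3, 4 and 6). CPM used TMM-scaled totals, and 95% intervals used the standard error implied by the F test. Within groups, pairs of samples differed by more than sampling noise (chi-square per degree of freedom 4.47 to 19.4). Alternatives were no block, limma-voom (limma 3.58.1), the size factors or the Wald test of DESeq2 1.42.0, no filter, at least 10 counts in every sample, and leaving out each embryo.

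The YAP/TEAD genes and all lists were chosen with earlier results of these data known. Named are all YAP/TEAD genes; in the pathway lists, each gene past the threshold, the 2 largest changes not past it, and Tead2, Tead3 and Tead4; in other lists, the 2 smallest p past the threshold in each direction; and for each YAP/TEAD gene past the threshold, the 3 genes with the highest correlation. Named outside this rule, after their values were seen, are relatives whose levels are compared per length (Lats1, Amot, Amotl1, Limd1 and Wtip), Nf2, Frmd6 and Igfbp3, and neighbours past the threshold. The markers Cd68, Adgre1, Mrc1, Fcgr1, Lum, Col1a1, Col1a2, Myog, Acta1 and Mylpf were also named after their values were seen. Promoter windows were searched for GGAATG and for the SRF CArG box on both strands. Unused sample columns numbered 0.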

Additional observations from a re-analysis of the deposited data

Results flagged for a closer look

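In groups of 5 samples, single teeth that stood apart from the other 4 by the Dixon test were sought for the 8 YAP/TEAD genes and for the list genes that the rule names, without the genes of similar pattern. They were found in 7 of 68 groups, where chance would give about 3.4. Among the YAP/TEAD genes, all 4 were IGF1 teeth. Tead1 was at 436 CPM in the IGF1 tooth of embryo 3, against 270 to 309 CPM in the others. Ctgf was at 50.4 CPM in the same tooth, against 37.1 to 38.7 CPM. Amotl2 was at 34.5 CPM in the IGF1 tooth of embryo 2, against 19.2 to 22.7 CPM, and Lats2 was at 48.4 CPM in that tooth, against 35.6 to 37.4 CPM. These are also the teeth of the embryos with the largest hypoxia medians (2.29 in embryo 2 and 2.22 in embryo 3), and the relation was not tested. Foxf2 was at 21.9 CPM in the IGF1 tooth of embryo 1, against 19.8 to 20.2 CPM. Egr3 stood apart in both teeth of embryo 6, at 102 CPM in control against 34.9 to 44.0 CPM, and at 76.7 CPM with IGF1 against 12.6 to 18.4 CPM.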

How the results depend on the processing

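Without the replicate block, 887 genes were called in place of 1666, 1 YAP/TEAD gene (Cyr61) in place of 3, 13 pathway and context genes in place of 25 and 0 other YAP target genes in place of 4. Without a filter on low counts, 2 other YAP target genes were called. Leaving out each embryo gave 986 to 1602 genes, 0 to 3 YAP/TEAD genes, 17 to 21 pathway and context genes, 0 to 1 Hippo kinases and scaffolds and 0 to 2 other YAP target genes. These fits have fewer samples. DESeq2 size factors, limma-voom and both other filters called the same 3 YAP/TEAD genes, while DESeq2's Wald test called Ctgf, Ajuba and Tead1. Of 88 log2 fold changes of YAP/TEAD genes under the alternatives, 71 kept their direction and side of the threshold, 12 lost the call, 3 gained it and 2 turned. Only Ctgf, Cyr61 and Ajuba had a call to lose, so all 12 losses fell on these genes. Each kept its call in 5 of the 6 other settings. With 1 embryo left out, Ctgf kept it in 2 of 5 fits, Cyr61 in 3 of 5 and Ajuba in 1 of 5. The 2 that turned were Wwtr1 at -0.03 without embryo 1 and -0.0475 without embryo 2, in a range of -0.0475 to 0.0580 over embryos left out. Tead3 turned to -0.0395 without embryo 4 and to -0.02 without embryo 6, in a range of -0.0395 to 0.0324. In the 250 bases before the start alone, 6 genes held a TEAD core in place of 7. Amotl2, Cyr61 and Lats2 rest on the fewest counts, 76 to 407 per sample. Apart from what the construction of each alternative shows, the cause was not tested.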
